A study of Drosophila melanogaster with 6 samples.

Results

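The iron and copper handling genes of the fly were followed here as a set of 10: the transferrins Tsf1, Tsf2 and Tsf3, the ferritin subunits Fer1HCH and Fer2LCH, the multicopper oxidases Mco1, Mco3 and Mco4, and the metallothioneins MtnA and MtnB. They were taken by FlyBase identifier from the 17753 genes of the count table. The rule itself used no measured value, but the members were chosen with earlier results of these data known. They are not whole families: MtnC, MtnD, MtnE, MtnF, Fer3HCH and the laccase stw are outside the set and are given separately below. Reads were present for 9 of the 10, and 7 had enough of them to be tested. The tenth, Tsf3, had 0 counts in all 6 libraries and was not measured: its span on chromosome 2R (16226501 to 16229869, build BDGP6.54) lies inside the gene CG15706 on the other strand, and 1044 of the 1044 protein-coding genes in that position had no counts in this table.

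The libraries were made from poly(A) RNA of male Drosophila melanogaster at day 10, with 10 flies and 500 ng of total RNA per library. All flies carried the same genotype, Repo-GS with a construct for RNA interference with Ugt35b, which encodes a UDP-glycosyltransferase. Repo-GS is a hormone-gated driver expressed in all glia, which acts when RU486 is fed. The 3 EtOH libraries are from flies given the solvent, and the 3 RU486 libraries are from flies given the drug. Libraries with RU486 but without the construct were not analysed here, so the drug and the knockdown cannot be told apart. Nothing in the labels says that libraries of a group came from separate crosses or vials, and p-values then measure only a spread between libraries that may be technical. Library totals ran from 10156909 to 12636787 counts. The target, listed as Ugt35B1, was at 145, 136 and 147 counts per 1000000 (CPM) in the EtOH libraries, and RU486 replicates 1 to 3 had 106, 83.5 and 104 CPM (log2 fold change -0.54, adjusted p = 0.00865 by edgeR's quasi-likelihood test). That call was lost without EtOH replicate 3 (adjusted p = 0.0566). The labels give the tissue as head and the protocol names brains, and 7 photoreceptor markers summed to between 49010 and 60583 CPM and 5 muscle markers to between 2161 and 2552 CPM, so eye and muscle RNA was present in every library. The 6 neuron markers summed to between 4204 and 6041 CPM, with elav at 0 or 6 counts in every library. Exons of elav overlap those of arg on the other strand and lncRNA:enrr on the same strand, so its low counts do not show absence. The 11 glial markers summed to between 4081 and 4452 CPM, most of it from Gs2 and nrv2. Among them, moody and alrm were at 0, as was the muscle marker Mlp84B. Each lies inside another gene, so these 0 values do not show absence. Of 9 glial markers tested, wrapper, Gat and zyd were called lower (log2 fold changes -2.10, -1.92 and -0.89) and Mdr65 and bdl higher (0.95 and 0.73), and the part of glial changes in the members' values was not tested.

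In animals, free iron and copper are kept scarce because both metals catalyse the formation of radicals. Transferrins bind iron in the circulation, ferritin stores it as a mineral inside a protein shell, multicopper oxidases use bound copper to oxidise iron or phenolic substrates, and metallothioneins are small cysteine-rich proteins that bind copper, zinc and cadmium. In flies, ferritin is largely secreted and Tsf1 is made by the fat body, a liver-like tissue that is also present in the head.

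The members lay at very different levels. Per kilobase of exonic length, the order in EtOH was Fer2LCH (552 ± 49.5 CPM per kb, SD, n = 3), Tsf1 (502 ± 67.7), MtnA (386 ± 54.1), Fer1HCH (344 ± 28.8), Tsf2 (22.2 ± 0.778), Mco1 (2.83 ± 0.599), MtnB (0.827 ± 0.489), Mco3 (0.210 ± 0.0630) and Mco4 (0.0757 ± 0.0359). Fer2LCH and Tsf1 overlapped in their ranges there, as did MtnA and Fer1HCH, and no other neighbours in the order did. Averaged over the 6 libraries, Tsf1, Fer2LCH, Fer1HCH and MtnA stood above 99.2%, 98.7%, 97.8% and 97.5% of tested genes in level per kilobase, while Mco1 and Mco4 stood above 25.5% and 20.6%. In RU486 the order was Tsf1 (937 ± 121 CPM per kb), Fer2LCH (565 ± 23.3), Fer1HCH (352 ± 16.1), MtnA (239 ± 9.08), Tsf2 (23.9 ± 1.65), Mco4 (9.76 ± 6.81), Mco1 (9.69 ± 6.95), MtnB (2.37 ± 2.37) and Mco3 (0.0590 ± 0.0265). The ranges of Mco4 and Mco1 overlapped there, as did those of Mco1 and MtnB, and no other neighbours did. Tsf1 thus passed Fer2LCH, MtnA came to lie below Fer1HCH, and Mco4 moved from the lowest place to the sixth.

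**Figure D1:**
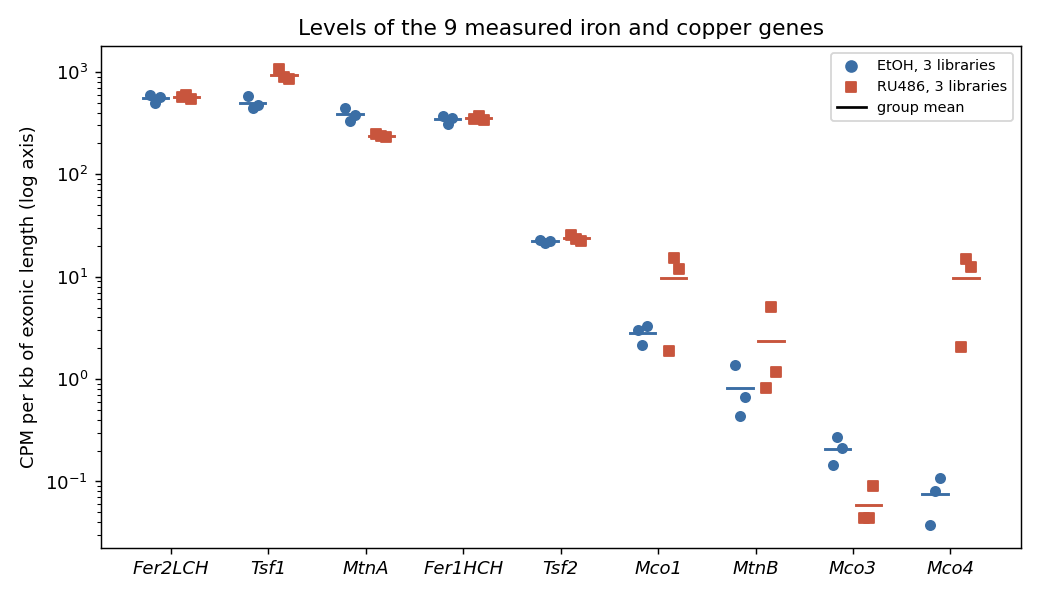
Level of each measured gene in CPM per kilobase of exonic length (log axis), with circles for the 3 EtOH libraries, squares for the 3 RU486 libraries and bars for group means. The RU486 libraries lie above all EtOH libraries for Tsf1 and Mco4 and below them for MtnA and Mco3, and the RU486 values of Mco1, Mco4 and MtnB are spread widely.

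Among the 7 members tested, Tsf1 and Mco4 rose with RU486, MtnA fell, and Tsf2, Fer1HCH, Fer2LCH and Mco1 did not pass. The threshold for a call was an adjusted p of 0.05, by the Benjamini-Hochberg method across the 8945 genes tested. Of all genes tested, 7.64% were called, 4.36% higher and 3.28% lower. The median log2 fold change of the 7 was 0.10, against 0.00 over all genes tested. Mco4 passed the minimum on counts only through the RU486 libraries, so its inclusion among those tested already required a difference. The groups did not overlap for Tsf1, Mco4 and MtnA, which holds for 27.3% of all genes tested, 13.9% higher and 13.5% lower in RU486. In bulk RNA, fewer cells of a type and less RNA per cell cannot be told apart.

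Tsf1 (FBgn0022355, chromosome X, 18387084 to 18390344, plus strand) encodes the main serum transferrin, which carries iron in the hemolymph and is also known as a gene induced by infection. EtOH replicates 1 to 3 had 1649, 1278 and 1371 CPM, and RU486 replicates 1 to 3 had 3065, 2547 and 2411 CPM. Every RU486 library lay above every EtOH library. The mean rose from 1432 ± 193 to 2674 ± 345 CPM (SD, n = 3), a 1.87-fold rise with a log2 fold change of 0.90 (SE 0.12) and an adjusted p of 0.00187 by edgeR's quasi-likelihood test. Tsf1 was called in each of the 6 fits that left out 1 library, with adjusted p between 0.00311 and 0.0244. With RU486 replicate 1 as the only treated library, a setting chosen after seeing the data, its log2 fold change was 1.12. That fit had no spread within the treated group.

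Markers of fat body and blood cells were read beside this rise. Of 12 fat body markers, 12 had counts, 7 were tested, 5 were called lower and 0 higher. Those lower were Obp99b, Lsp1beta, Yp1, Yp2 and Yp3 (log2 fold changes -4.49, -3.51, -1.72, -1.66 and -0.37). The yolk protein genes Yp1, Yp2 and Yp3 passed narrowly (adjusted p = 0.0412, 0.0434 and 0.0489 by edgeR's quasi-likelihood test). Yp1 and Yp2 were low, at 0.658 to 7.71 CPM, and exons of Yp1 overlap those of asRNA:CR45601 on the other strand. The list summed to 5630 to 6591 CPM in EtOH and 5322 to 5646 CPM in RU486. Most of it came from apolpp, a lipoprotein precursor, which was not called (-0.05), nor was fat-spondin (-0.35). Of 10 hemocyte markers, 8 were tested, 2 were called higher (Pxn and srp, log2 fold changes 1.18 and 0.38) and 1 lower (PPO2, -0.73). That list summed to 886 to 950 CPM in EtOH and 1083 to 1179 CPM in RU486. PPO1, which lies inside another gene, was at 0 in every library. The hemocyte markers not called were Hml, NimC1, eater, crq and Sr-CI, with log2 fold changes of 0.06, 0.03, 0.07, -0.07 and 0.01. The part of either cell type in the rise of Tsf1 was not tested.

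Tsf2 (FBgn0036299, chromosome 3L, 12530436 to 12533724, minus strand) encodes a membrane-anchored transferrin related to melanotransferrin, needed for septate junctions in epithelia. It was at 66.2, 61.7 and 64.4 CPM in EtOH and at 74.2, 67.7 and 64.9 CPM in RU486. The groups overlapped, with a log2 fold change of 0.10 whose 95% interval ran from -0.07 to 0.28 (adjusted p = 0.486). Within the transferrin family, the rise of the secreted member was thus measured beside a small and uncalled difference in the membrane-bound member; the difference between the 2 genes was not tested.

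The ferritin subunits differed little between the groups. Fer1HCH (FBgn0015222, 30385573 to 30388178, minus strand) encodes the heavy chain, which has the ferroxidase centre, and Fer2LCH (FBgn0015221, 30387804 to 30390584, plus strand) the light chain, and both lie on chromosome 3R. Fer1HCH was at 875, 742 and 834 CPM in EtOH and at 816, 879 and 811 CPM in RU486. Fer2LCH was at 973, 817 and 937 CPM in EtOH and at 927, 971 and 895 CPM in RU486. For both genes the groups overlapped, and EtOH replicate 2 was the lowest library. The log2 fold change was 0.03 for each, with a 95% interval of -0.16 to 0.22 for Fer1HCH (adjusted p = 0.870) and -0.15 to 0.22 for Fer2LCH (adjusted p = 0.861).

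The subunit genes stand head to head and share 375 bases at their 5′ ends on opposite strands, of which 118 are exonic in both. Their counts followed each other from library to library. The ratio of Fer1HCH to Fer2LCH counts was 0.899, 0.908 and 0.890 in the EtOH libraries, and in RU486 it was 0.880, 0.905 and 0.906. The groups overlapped in this ratio too. Reads in the shared stretch may have been lost or split in the authors' counting, since no use of strand is recorded for it.

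The multicopper oxidase Mco4 (FBgn0052557, chromosome X, 17852958 to 17856129, minus strand) had the largest fold change of the members. EtOH replicates 1 to 3 held 1, 2 and 3 counts of it, and RU486 replicates 1 to 3 held 45, 330 and 267. As CPM these are 0.0804, 0.171 and 0.233 in EtOH and 4.35, 31.7 and 26.3 in RU486. Each RU486 library lay above each EtOH library, and RU486 replicates 2 and 3 were 7.30 and 6.06 times RU486 replicate 1. Summed over libraries, 6 counts in EtOH stood against 642 in RU486, a ratio of 128 after scaling by library size, with an exact 95% interval of 58.6 to 351 that covers counting error only. The fitted log2 fold change was 6.91 (SE 0.93, adjusted p = 0.00246 by edgeR's quasi-likelihood test), a value that rests on the few EtOH counts. The call was lost with a robust prior (adjusted p = 0.0560) and with limma-voom (adjusted p = 0.107), and it held in each of the 6 fits that left out 1 library.

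Mco1 (FBgn0032116, chromosome 2L, 9416588 to 9426342, plus strand), a multicopper oxidase with ferroxidase activity, showed the same division of the RU486 libraries. It was at 10.1, 7.19 and 11.0 CPM in EtOH and at 6.28, 50.8 and 39.9 CPM in RU486. RU486 replicate 1 was the lowest of all 6 libraries, and replicates 2 and 3 were the highest. The log2 fold change of 1.77 (SE 0.58) did not pass (adjusted p = 0.108). Without RU486 replicate 1 it was 2.25 (adjusted p = 0.00101), and with that library as the only treated one it was -0.57 (adjusted p = 0.525). The direction for Mco1 therefore depends on which RU486 libraries are counted.

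Mco3 (FBgn0039387, chromosome 3R, 25897476 to 25899744, plus strand), a further multicopper oxidase linked to iron handling in the gut, was near the limit of detection. It had 4, 7 and 6 counts in EtOH and 1, 1 and 2 counts in RU486. All RU486 libraries lay below all EtOH libraries, but the gene was too low to be tested. The ratio of RU486 to EtOH was 0.282, with an exact 95% interval of 0.0690 to 0.865 for counting error only. When no minimum was set on counts, it was not called (adjusted p = 0.242 by edgeR's quasi-likelihood test).

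Digestive markers also differed among the RU486 libraries. Of 26 digestive markers, 21 had counts and 11 were tested, with the amylase genes Amy-p and Amy-d called higher. The 5 at 0 throughout were Jon66Ci, Jon66Cii, deltaTry, zetaTry and Bace, of which Bace lies inside another gene. The summed level of the list was 57.6, 78.9 and 43.1 CPM in the EtOH libraries, whereas RU486 replicates 1 to 3 had 43.9, 11838 and 906 CPM. The sum of RU486 replicate 1 was within the EtOH range, but the single markers were not all so: 13 lay below every EtOH library, 5 within their range and 3 above it. Those above were Amy-p, at 9.24 CPM against 3.17 to 5.22 CPM in EtOH, Amy-d, at 21.8 CPM against 19.5 to 20.6 CPM, and Amyrel, at 0.385 CPM against 0 to 0.257 CPM. Some of these placings rest on few counts. Npc1b had 2 counts in RU486 replicate 1 against 4 to 6 in EtOH, and Amyrel had 4 against 0 to 3. The share of all genes placed this way was not computed. With RU486 replicate 1 as the only treated library, the log2 fold change of Mco4 was 4.68, in a fit with no spread within the treated group. RU486 replicate 2 exceeded replicate 3 by 13.1-fold in the digestive sum, 3.03-fold in Amy-p, 4.05-fold in Amy-d, 1.20-fold in Mco4 and 1.27-fold in Mco1. The digestive and amylase ratios are per total counts, without the scaling factors used for Mco4 and Mco1. In RU486 replicate 3, Jon25Bi, Jon25Bii, Jon25Biii, thetaTry, Npc1b and Vha100-4 were not above all EtOH libraries, whereas the other measured markers were. The part of digestive tissue in the values of Mco4 and Mco1 was not tested.

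Of 11 cuticle protein and Osiris genes, Osi6, Cpr49Ab and Cpr49Ac were called higher, but they were on that list because their rise was already known. The other 8, of which Osi18 was at 0, summed to 18.6, 10.9 and 14.2 CPM in EtOH and 12.03, 12.1 and 14.8 CPM in RU486, so the groups overlapped. Osi2 and Osi9, the 2 of these tested, were not called (adjusted p = 0.849 and 0.337 by edgeR's quasi-likelihood test). The related gene stw, a laccase that tans the cuticle, was at a mean of 68.0 CPM in EtOH and 72.3 CPM in RU486 (log2 fold change 0.09, adjusted p = 0.546).

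**Figure D2:**
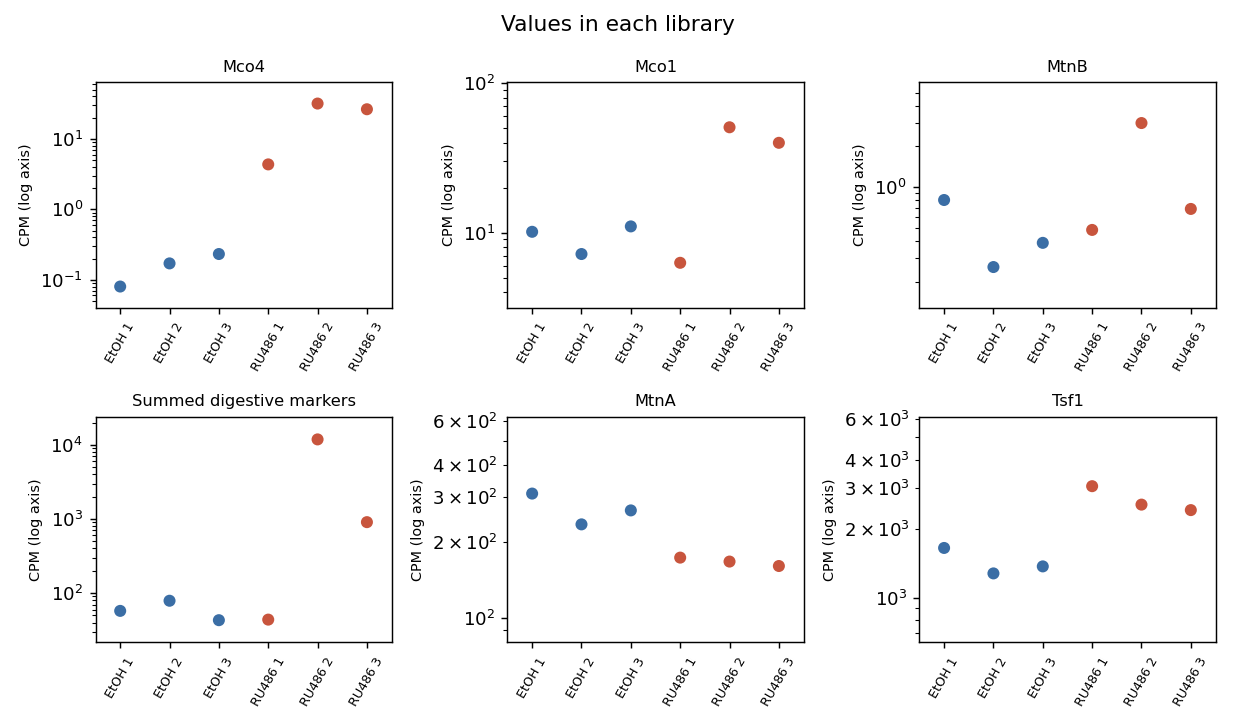
Value in each of the 6 libraries, in CPM on log axes, for Mco4, Mco1, MtnB, MtnA, Tsf1 and the summed digestive markers, with EtOH in blue and RU486 in red. RU486 replicate 1 is within the EtOH range for the digestive sum and MtnB, below it for Mco1 and MtnA, and above it for Mco4 and Tsf1.

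Of the metallothioneins, MtnA fell and the others were not called or were too low to be tested. MtnA (FBgn0002868, chromosome 3R, 9783407 to 9784370, minus strand) is the most widely expressed member of the family. It was at 310, 234 and 266 CPM in EtOH and at 173, 167 and 161 CPM in RU486. Every RU486 library lay below every EtOH library. The mean fell from 270 ± 37.9 to 167 ± 6.35 CPM (SD, n = 3), 1.62-fold, with a log2 fold change of -0.69 (SE 0.11, adjusted p = 0.00451 by edgeR's quasi-likelihood test). The call held in each of the 6 fits that left out 1 library, where the log2 fold change ranged from -0.79 to -0.60. With RU486 replicate 1 as the only treated library it was -0.62 and did not pass (adjusted p = 0.1999).

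MtnB (FBgn0002869, chromosome 3R, 20503102 to 20503746, minus strand), a metallothionein known from the copper-accumulating cells of the midgut, had 10, 3 and 5 counts in EtOH and 5, 31 and 7 counts in RU486. It was too low to be tested. Only RU486 replicate 2, the library with the highest digestive sum, lay above all EtOH libraries. The part of digestive tissue in the values of MtnB was not tested. The ratio of summed counts was 2.86, with an exact 95% interval of 1.62 to 5.27 for counting error only, and without a minimum on counts the adjusted p was 0.350.

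The low metallothioneins MtnC, MtnD and MtnE were also highest in RU486 replicate 2. MtnC had 0, 10 and 1 counts in EtOH and 0, 77 and 1 counts in RU486. MtnD had 10, 10 and 11 counts in EtOH and 7, 29 and 6 counts in RU486. MtnE had 5, 6 and 3 counts in EtOH and 4, 9 and 5 counts in RU486. None of these was high enough to be tested, and the part of digestive tissue in their values was not tested either. MtnF was at 7.31, 8.13 and 7.75 CPM in EtOH and at 5.80, 4.13 and 5.92 CPM in RU486. It was lower in every RU486 library, with a log2 fold change of -0.55 (SE 0.18) that did not pass (adjusted p = 0.110), and its exons overlap those of atl on the other strand.

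Most other genes of metal handling did not pass the test. A list of 58 held further members of these families and genes for iron transport and regulation, heme synthesis and breakdown, iron-sulfur cluster assembly, copper handling and zinc transport. Of these, 53 were measured and 48 tested, 2 were called higher, 2 lower and 44 did not pass. The 4 called, ATP7, Zip89B, Sod3 and nemy, kept their calls whichever of the 6 libraries was left out, and with RU486 replicate 1 as the only treated library Zip89B was the 1 called. The share called was 8.33%, near the 7.64% of all genes, and the median log2 fold change was -0.02. Those not measured were Fer3HCH, Cox11, Zip48C and ZnT33D, which lie inside other genes, and the copper importer Ctr1C.

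Copper handling held a rise and a fall among 10 genes tested. ATP7, the copper-exporting ATPase, was at 62.5, 64.8 and 64.5 CPM in EtOH and at 86.0, 85.9 and 84.6 CPM in RU486, with a change of 0.42 on the log2 scale (SE 0.06, adjusted p = 0.00386 by edgeR's quasi-likelihood test). Its groups were tight and did not overlap, and its exons overlap those of Nrd1 on the other strand. Sod3, the extracellular copper and zinc superoxide dismutase, was at 200, 187 and 208 CPM in EtOH and at 153, 134 and 126 CPM in RU486, with a change of -0.53 on the log2 scale (SE 0.09, adjusted p = 0.00735). Its groups did not overlap either. The copper importers Ctr1A and Ctr1B, the chaperones Atox1 and Ccs, the cytosolic dismutase Sod1 and MTF-1, the transcription factor that activates metallothionein genes, did not pass. MTF-1 had a log2 fold change of 0.09 (adjusted p = 0.659), beside the fall of MtnA. Exons of MTF-1 overlap those of Bet3 and CG42526 on the other strand and asRNA:CR45872 on the same strand. Those of Ctr1B overlap Poxm on the other strand and lncRNA:CR45215 on the same strand.

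Among 8 genes of iron transport and regulation, 1 fell and 0 rose. This was nemy, a cytochrome b561 gene known for a part in memory, at 64.6, 67.2 and 66.7 CPM in EtOH and 51.3, 46.3 and 48.5 CPM in RU486 (log2 fold change -0.44, SE 0.07, adjusted p = 0.00706 by edgeR's quasi-likelihood test). All RU486 libraries were below all EtOH libraries. The iron regulatory protein genes Irp-1A and Irp-1B, of which Irp-1A is known to bind ferritin and other messenger RNAs when iron is low, had log2 fold changes of -0.06 and 0.01, and the iron importer Mvl 0.04 and the mitochondrial iron carrier mfrn 0.11. None of these was called (adjusted p between 0.375 and 0.981).

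Heme and iron-sulfur genes gave no calls. Among 9 heme genes edgeR called 0, with 0 at an unadjusted p under 0.05, and the smallest p values belonged to Alas, the entry enzyme of heme synthesis (log2 fold change -0.13, adjusted p = 0.284), and the heme oxygenase Ho (-0.10, adjusted p = 0.526). Among 7 iron-sulfur genes edgeR also called 0, with 0 at an unadjusted p under 0.05, led by bcn92 (-0.17, adjusted p = 0.338) and Cisd2 (-0.18, adjusted p = 0.393). DESeq2 and limma-voom called none in either list. Without EtOH replicate 2, Alas and Cisd2 were called lower, as was Sod1.

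Among 12 zinc transporters tested, Zip89B rose and 11 did not pass. Zip89B, a zinc importer known from the gut, was at 25.5, 21.3 and 21.3 CPM in EtOH and at 43.6, 43.2 and 47.3 CPM in RU486. All RU486 libraries lay above all EtOH libraries. The part of digestive tissue in the values of Zip89B was not tested. The log2 fold change was 0.98 (SE 0.09, adjusted p = 0.000485 by edgeR's quasi-likelihood test).

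**Figure D3:**
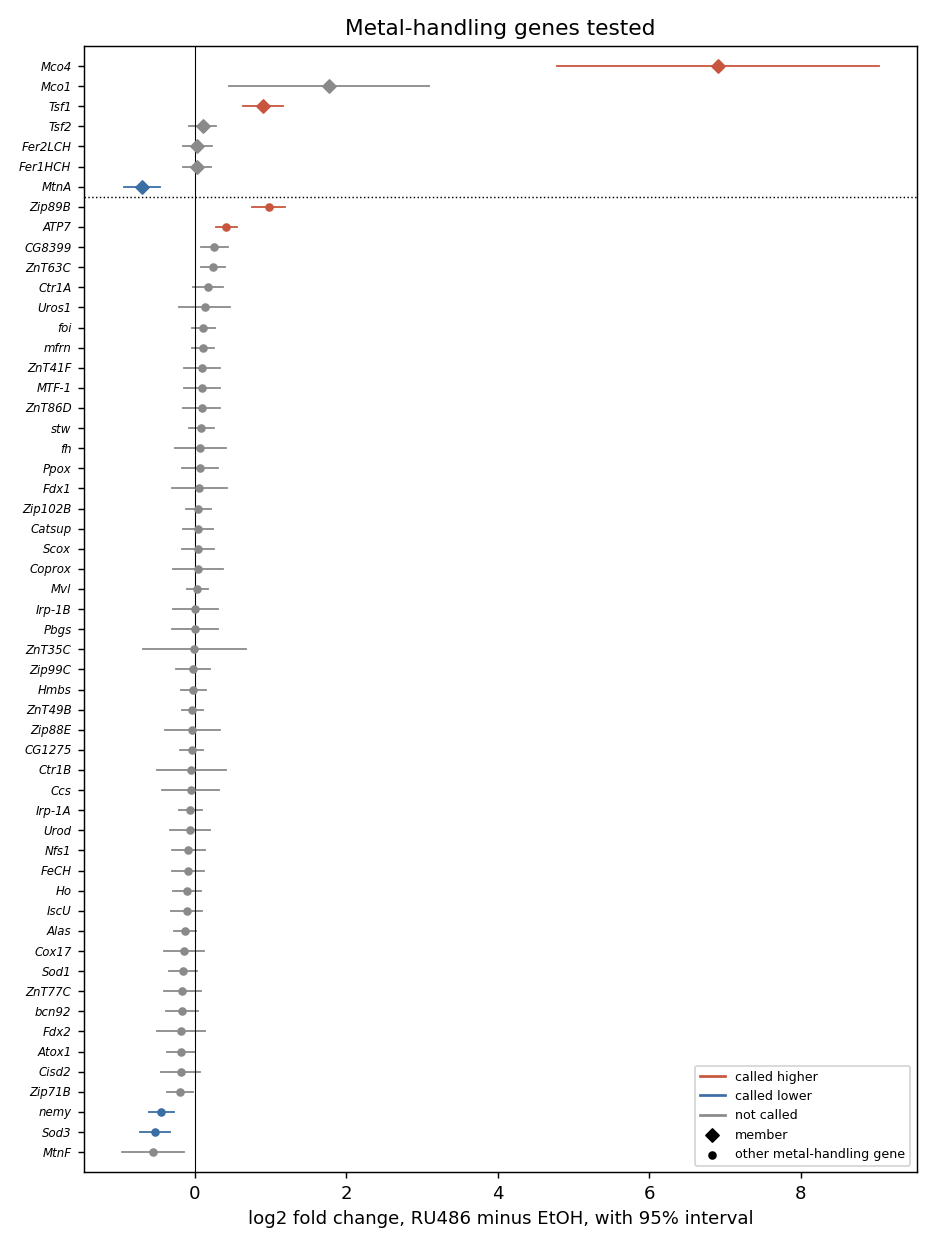
Log2 fold change with its 95% interval for the 7 members tested (diamonds, above the dotted line) and 48 other metal-handling genes (circles), colored by call. Mco4, Tsf1, Zip89B and ATP7 were called higher and MtnA, Sod3 and nemy lower, and the intervals of most others cross 0.

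The genes whose pattern over the 6 libraries was most like that of Tsf1, by Pearson correlation of log2 CPM, were LBR (r = 0.998), Cyp4g15 (0.994), CycD (0.994), grass (0.993) and Pez (0.993). Of these, grass, a serine protease gene of the Toll pathway, and Pez, a phosphatase gene, were called higher (log2 fold changes 0.72 and 0.36, adjusted p = 0.00336 and 0.0234 by edgeR's quasi-likelihood test). Like Tsf1, grass was highest in RU486 replicate 1, at 89.1 CPM against 73.5 and 71.6 CPM in replicates 2 and 3. It was picked for its likeness to Tsf1 over these libraries, so this shared peak is no separate observation. Those most like Mco4 were CG13185 (0.996), Ankle2 (0.994), CG10413 (0.993), btv (0.991) and Ask1 (0.990), with CG13185, Ankle2 and CG10413 called higher. Their changes were far smaller than that of Mco4, with log2 fold changes of 0.15 to 0.58. These correlations describe 6 libraries that fall into 2 groups and are the highest among the 8945 genes tested.

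**Figure D4:**
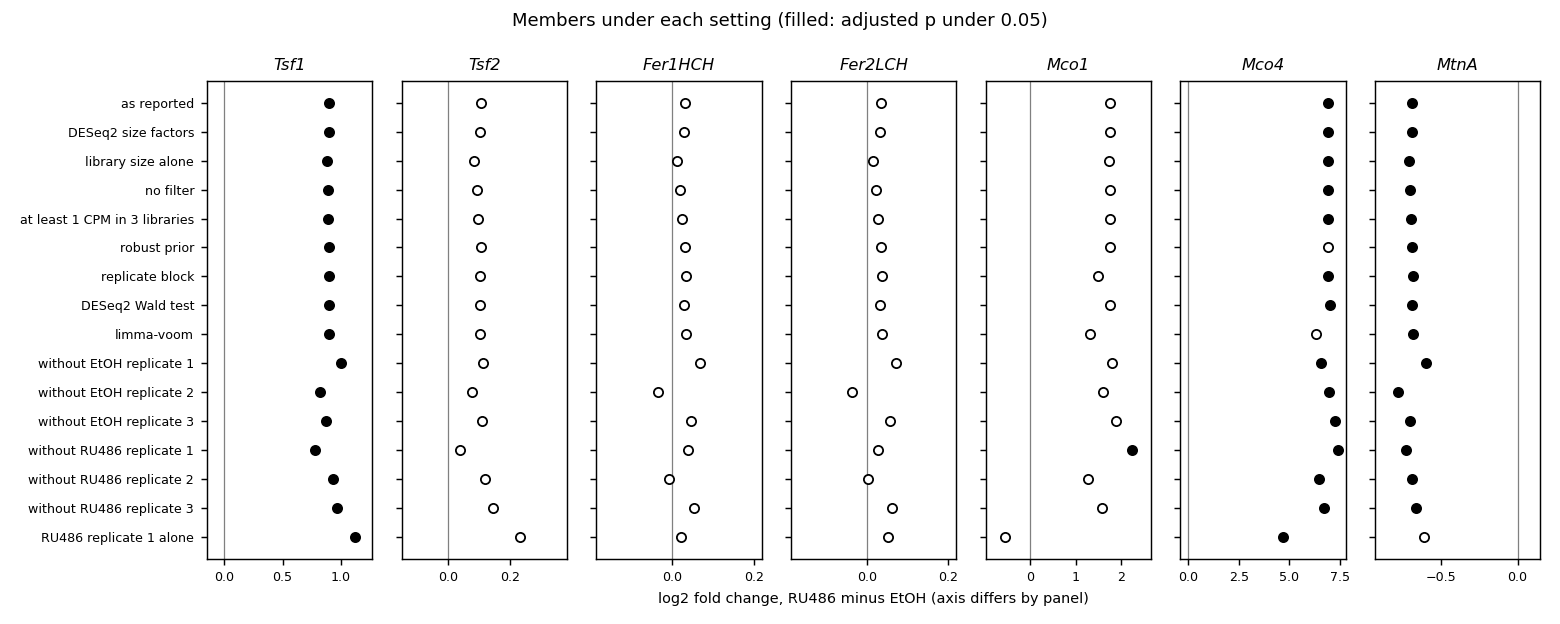
Log2 fold change of each tested member as reported and under 15 other settings, with filled circles where the adjusted p was under 0.05 and an axis of its own in each panel. Tsf1 is filled throughout, MtnA in all settings but that with RU486 replicate 1 alone, and Mco1 only where RU486 replicate 1 was left out.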

How the data were processed

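The authors deposited raw counts of reads per gene for 6 libraries, 1 column each, and per the file headers these are not normalised. Build BDGP6 comes from the submitters' processing notes, and the labels' protocols name a stranded mRNA kit. No source used here gives the aligner, counting program or strand setting. Identifiers were paired with symbols from a FlyBase table (17626 of 17753 matched). Coordinates are 1-based, from Ensembl's BDGP6.54 annotation, and exonic length is the union of annotated exons. In R 4.3.3 with edgeR 4.0.16, filterByExpr (minimum count 10) left 8945 genes, scaled by TMM factors and tested by the two-sided quasi-likelihood test of RU486 against EtOH. CPM values use TMM factors, except those of single marker genes and marker sums, which are per 1000000 total counts. SE is the log2 fold change over the square root of F. Log2 CPM for correlations used a prior count of 2. Alternatives included DESeq2 1.42.0 and limma 3.58.1. The members and lists were chosen with earlier results of these data known. Named genes were all members, the target, every other metal-handling gene called (or, in a list with no call, the 2 with the smallest p), and the 5 genes most like Tsf1 and Mco4. Other metal-handling and marker genes named were chosen after their values were seen. No libraries of a group agreed within sampling noise. The procedure was tested on simulated data. Intervals on counts cover counting error only. A further iron-sulfur gene is not reported here.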

Additional observations from a re-analysis of the deposited data

How the results depend on the processing

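Across 15 alternatives, Tsf1 was called higher in 15 (log2 fold change 0.78 to 1.12), Mco4 in 13 (4.68 to 7.38) and MtnA lower in 14 (-0.79 to -0.60), and Tsf2 was never called (0.04 to 0.23). With the robust prior and limma-voom Mco4 did not pass (log2 fold changes 6.91 and 6.33, adjusted p = 0.0560 and 0.107), which left 1 member higher in each. The cause was not tested. Leaving out 1 library gave 341 to 1441 genes called in place of 683, with the highest without EtOH replicate 2 and the lowest without EtOH replicate 3. It gave 2 to 3 members higher and 2 to 5 other metal-handling genes lower. The log2 fold change ranged from -0.034 to 0.068 for Fer1HCH, from -0.038 to 0.070 for Fer2LCH and from 1.29 to 2.25 for Mco1. Fer1HCH turned negative without EtOH replicate 2 (-0.034) or RU486 replicate 2 (-0.0066), and Fer2LCH without EtOH replicate 2 (-0.038). With RU486 replicate 1 alone against EtOH, a setting chosen after seeing the data, 198 genes were called, with 0 members lower, 1 other metal-handling gene higher (Zip89B) and 0 lower. MtnA was then -0.62 and Mco1 -0.57, neither called, with fewer samples in the fit. With the replicate number as a block, the 3 members and 4 other metal-handling genes called were the same as without it, and 683 calls became 872. Same-numbered libraries did not deviate together for every number (correlations of deviations 0.12, 0.27 and -0.04), so the numbers were not taken as pairs. Depth limits Mco3, MtnB, MtnC, MtnD and MtnE, which had under 80 counts in every library.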
